A study of Homo sapiens with 16 samples.

Results

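The 10 genes described here carry glucose into the cell, break it down or answer a shortage of oxygen: SLC2A1, SLC2A3, HK2, PFKFB4, PGK1, LDHA, VEGFA, ADM, CA9 and BNIP3. They were picked by symbol from the 58219 genes of the deposited table. RNA was sequenced in PANC-1, a long-used human cell line grown from a carcinoma of the pancreatic duct. The cells are labelled wild type and were grown in DMEM with serum. They were either non-transfected or received siRNA against FLASH (encoded by CASP8AP2), NPAT or SLBP, factors needed to make or process the transcripts of replication-dependent histone genes. Each of these 4 kinds of cells was kept without TGFb, a growth factor that drives epithelial cells towards a mesenchymal state, or was treated with it at 100 ng/ml for 48 h. This gave 8 groups of 2 libraries each, 16 in all. The study asked what the 3 factors do in that epithelial-mesenchymal transition. A control siRNA without a target is named for none of the groups, so taking up any siRNA is part of each comparison with non-transfected cells. The 6 comparisons of an siRNA with non-transfected cells share their controls by TGFb state, and each TGFb response shares its groups with siRNA comparisons. Nothing in the labels says that the libraries of a group came from separate cultures, so the p values measure only the spread between these libraries, which may be technical.

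Cells sense oxygen through hypoxia-inducible factor (HIF), whose alpha subunits (HIF1A, EPAS1) are marked for destruction by prolyl hydroxylases (EGLN1, EGLN3) and the VHL ubiquitin ligase while oxygen is plentiful. When oxygen falls the alpha subunit pairs with ARNT and switches on genes for glucose uptake, glycolysis, vessel growth, acid handling and the removal of mitochondria. All 10 genes are textbook HIF targets in at least some cell types, and many of them also answer to other signals. Carcinomas of the pancreas are known to be poorly perfused and to rely heavily on glycolysis.

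HIF binds short DNA elements whose core is ACGTG or GCGTG. Both were searched on both strands in RefSeq windows from 250 bases before to 50 bases after the annotated start (build GRCh38.p14). The palindrome CACGTG, which is also the core of an E-box read by other factors, counts as ACGTG on each strand. Windows were at hand for 8 of the 10 genes, with 2 each for HK2 and LDHA. All 10 windows held a match, against 48.4% of the 35116 windows of that length in the table, where ACGTG stood in 21.4% and GCGTG in 36.5%. SLC2A3 and VEGFA are named only. Stretches are printed for BNIP3 and ADM, which carried the largest falls under TGFb among the 10 genes, and for PGK1 and LDHA, whose levels differed least between groups. Capitals mark the matches, and all stretches read 5′ to 3′ on the strand of the gene. The BNIP3 stretch (chr10:131982014-131982173, minus strand) holds 6 matches, PGK1 (chrX:78103998-78104173, plus strand) holds 3, LDHA (chr11:18394313-18394387, plus strand) holds 2 from 1 palindrome, and ADM (chr11:10304960-10304989, plus strand) holds 1. The stretches differ in length (160, 176, 75 and 30 bases), so these counts cannot be set against each other. Over the full 300-base windows the matches were 6 for BNIP3, 4 for PGK1, 6 and 1 for the 2 LDHA windows and 1 for ADM.
BNIP3: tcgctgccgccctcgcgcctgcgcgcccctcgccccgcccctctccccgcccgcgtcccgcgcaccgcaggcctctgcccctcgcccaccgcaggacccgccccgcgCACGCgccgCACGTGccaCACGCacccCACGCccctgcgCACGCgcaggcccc
PGK1: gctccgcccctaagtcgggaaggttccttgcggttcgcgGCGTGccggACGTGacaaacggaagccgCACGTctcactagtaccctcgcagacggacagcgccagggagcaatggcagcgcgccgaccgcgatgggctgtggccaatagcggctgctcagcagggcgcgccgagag
LDHA: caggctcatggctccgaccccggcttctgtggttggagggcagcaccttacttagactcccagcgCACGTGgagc
ADM: gagcaggagcgcGCGTGgctgaggaaagaa
A match is a string of letters and not a bound site, and genes with several matches are found both among those that moved and among those that hardly did.

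The libraries held 23.8 to 30.8 M counts, of which 6.96 to 13.1% came from mitochondrial genes. Each siRNA lowered its own target. CASP8AP2 fell from 57.2 ± 7.39 to 11.7 ± 1.98 CPM (counts scaled to library size, mean ± SD, n = 2) with FLASH siRNA, NPAT from 51.1 ± 3.2 to 5.45 ± 0.0845 CPM with NPAT siRNA, and SLBP from 67.4 ± 6.01 to 3.88 ± 0.501 CPM with SLBP siRNA. Markers of duct and carcinoma epithelium (8 genes) summed to between 938 and 1863 CPM in every library. Most of the sum was KRT8 and KRT18, at 524 and 501 CPM in non-transfected cells. There SOX9 stood at 199, KRT19 at 121, EPCAM at 36.3 and MUC1 at 12.5 CPM. KRT7 was low at 2.92 CPM and CFTR stood at 0, so the sum does not by itself identify duct cells. Acinar markers summed to at most 0.488 CPM with AMY2A and PTF1A at 0, endocrine markers to at most 0.705 CPM with INS at 0, erythroid markers to at most 1.49 CPM and leukocyte markers to between 26.9 and 188 CPM. The values of the endothelial and of the fibroblast and stellate lists differed between groups and are given beside the glucose transporters.

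Compared per length of transcript, the 10 genes spanned the range from abundant enzymes to a nearly silent one. The median TPM over the 16 libraries was 562 for LDHA, 340 for PGK1, 219 for ADM, 105 for VEGFA, 43.7 for BNIP3, 24.4 for SLC2A1, 6.29 for PFKFB4, 3.6 for HK2, 1.56 for SLC2A3 and 0.09 for CA9. The 2 abundant enzymes were also the steadiest. In mean CPM the highest group exceeded the lowest 1.23-fold for PGK1 and 1.33-fold for LDHA, 1.89-fold for VEGFA, 2.15-fold for HK2, 2.17-fold for BNIP3, 2.41-fold for ADM, 2.43-fold for SLC2A1, 3.59-fold for PFKFB4 and 49.1-fold for SLC2A3.

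**Figure D1:**
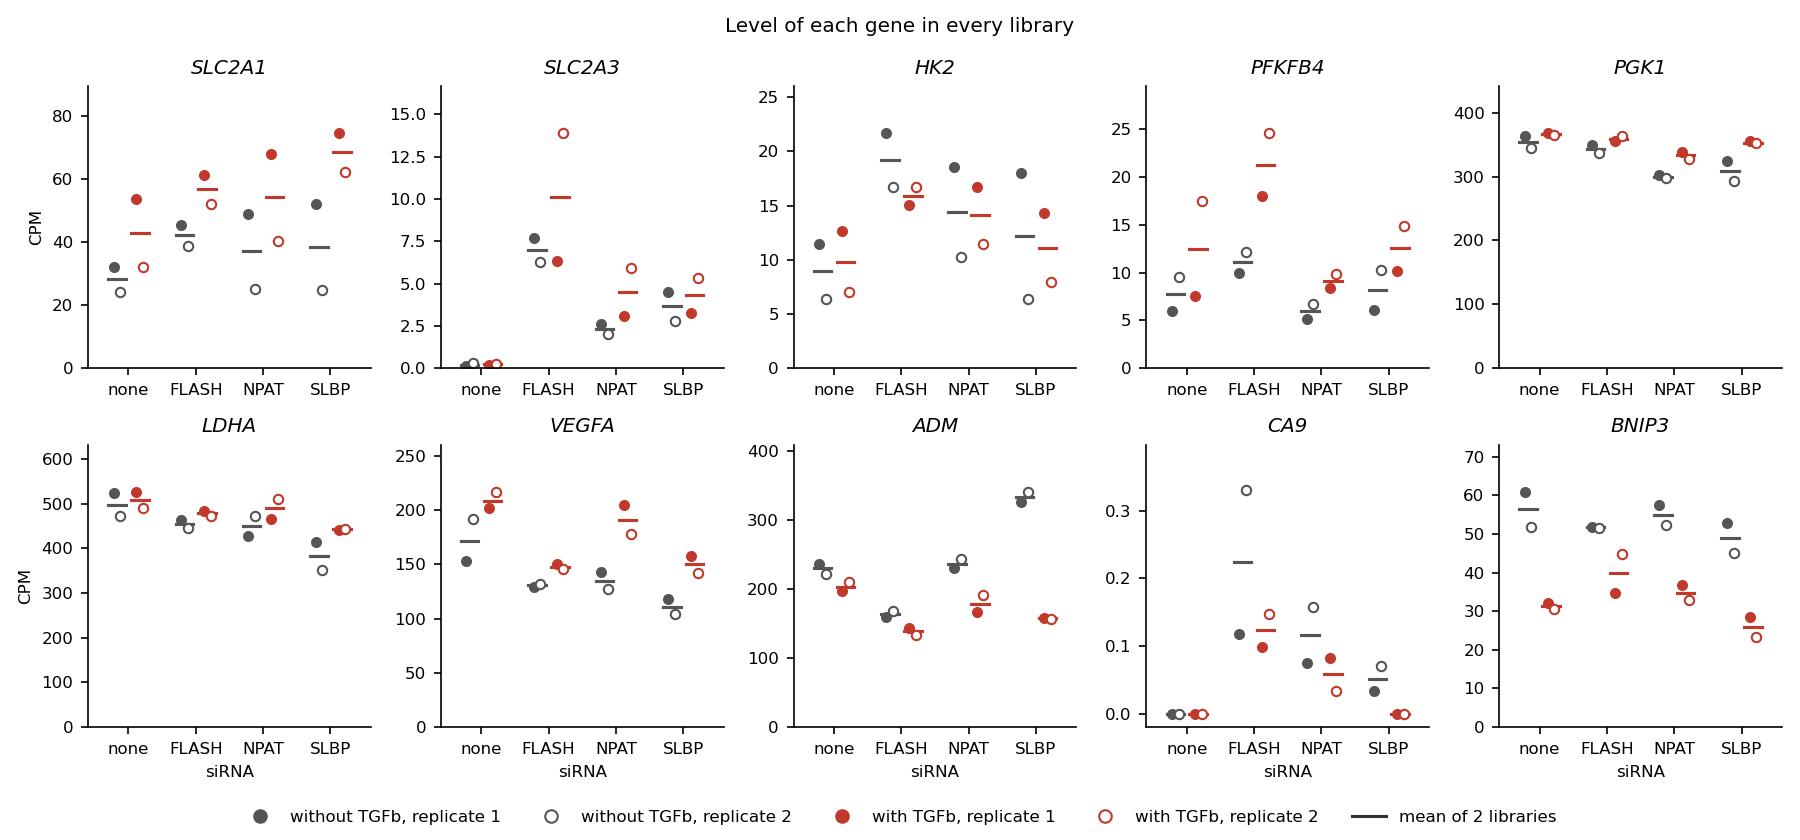
CPM of each gene in every library, by siRNA (x axis), without TGFb (grey) and with TGFb (red). Filled points are replicate 1, open points replicate 2 and bars the mean of 2 libraries; SLC2A3 stands near 0 only in the 4 non-transfected libraries, and ADM is highest in SLBP siRNA cells without TGFb at 327 and 341 CPM.

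A gene was called changed at a Benjamini-Hochberg adjusted p under 0.05 in edgeR's quasi-likelihood test over all 17743 genes that passed the filter on low counts, and every adjusted p below comes from that fit. CA9 was too low to be tested, which left 9 of the 10 genes. SLC2A3 passed the filter only through the siRNA groups, so it had to differ between groups and its calls add nothing as evidence. In non-transfected cells TGFb lowered BNIP3 and raised none, against 6.18% of all genes called (4.54% higher and 1.64% lower). In FLASH siRNA cells none was called against 4.11% of all genes (3.35% higher and 0.755% lower); 3 of the 9 had an unadjusted p under 0.05, and DESeq2 and limma-voom called 0. In NPAT siRNA cells VEGFA rose and ADM and BNIP3 fell, against 5.33% of all genes called (3.42% higher and 1.92% lower). In SLBP siRNA cells the same 3 symbols were called in the same directions, against 12.6% of all genes (8.07% higher and 4.52% lower).

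The siRNAs changed more of the transcriptome than TGFb did, and without TGFb 3 or 4 of the 9 genes were called for each. FLASH siRNA without TGFb raised SLC2A3 and lowered VEGFA and ADM, against 33.8% of all genes called (20.8% higher and 12.9% lower). NPAT siRNA without TGFb raised SLC2A3 and lowered VEGFA and PGK1, against 32.3% (18.9% higher and 13.3% lower). SLBP siRNA without TGFb raised SLC2A3 and ADM and lowered VEGFA and LDHA, against 25.9% (15.1% higher and 10.8% lower). With TGFb present, FLASH siRNA raised SLC2A3 and lowered VEGFA and ADM against 26.6% of all genes called (17.5% higher and 9.06% lower). Under the same condition NPAT siRNA raised SLC2A3 alone, against 24.1% (13.7% higher and 10.3% lower), and SLBP siRNA raised SLC2A3 and lowered VEGFA and ADM, against 19.9% (12.3% higher and 7.6% lower). The median log2 fold change of the 9 genes lay between -0.06 and 0.34 in the 10 comparisons of an agent with its absence, and that of all genes between -0.03 and 0.07.

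**Figure D2:**
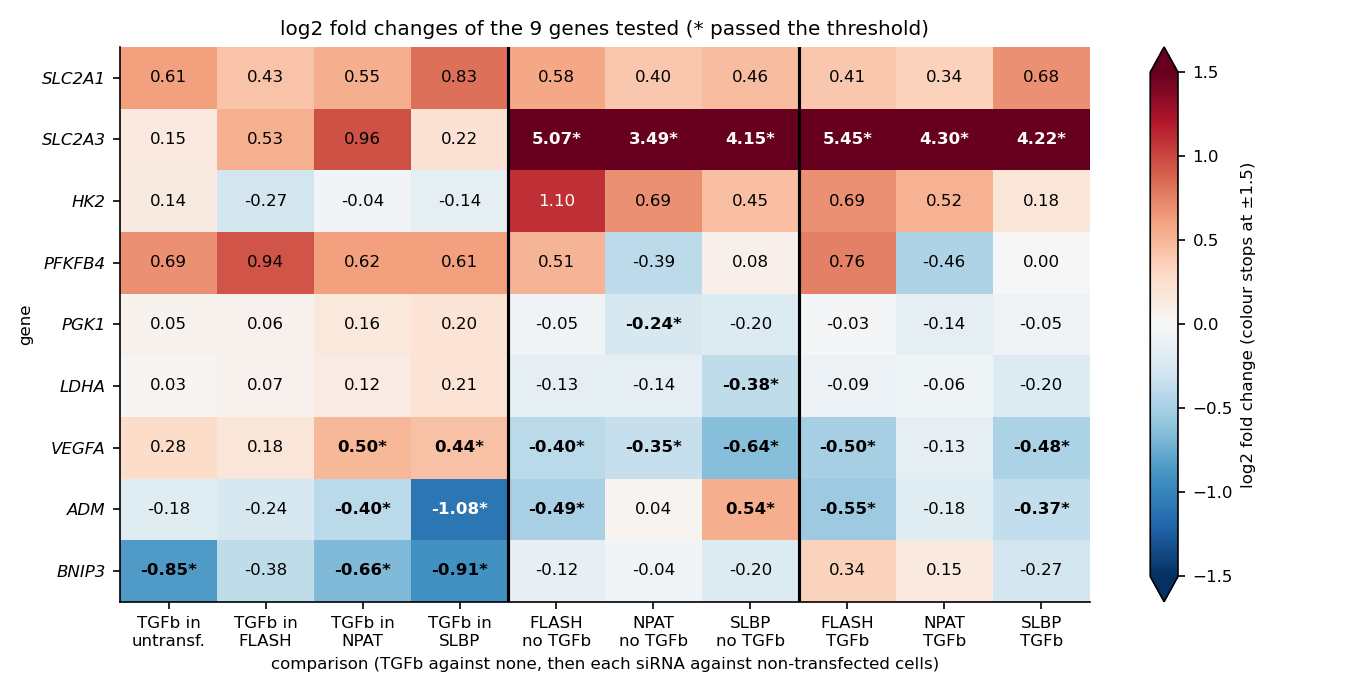
log2 fold change of the 9 tested genes (rows) for TGFb in each kind of cells and for each siRNA without and with TGFb (columns); red is higher, blue lower, and an asterisk marks an adjusted p under 0.05. Called changes stand in the rows of SLC2A3, VEGFA, ADM and BNIP3, with single calls for PGK1 and LDHA and none for SLC2A1, HK2 and PFKFB4. With the replicate number as a block, SLC2A1, HK2 and PFKFB4 gained calls.

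SLC2A1 (GLUT1, ENSG00000117394.20, chr1:42925375-42959176, minus strand of GRCh38) is the common carrier that brings glucose into most cells. In replicates 1 and 2 it stood at 32.3 and 24.1 CPM in non-transfected cells, 45.6 and 38.7 with FLASH siRNA, 48.9 and 25.2 with NPAT siRNA, and 52.2 and 25 with SLBP siRNA. With TGFb the values were 53.7 and 32.1 in non-transfected cells, 61.4 and 52.2 with FLASH siRNA, 68.1 and 40.5 with NPAT siRNA, and 74.7 and 62.4 with SLBP siRNA. Each mean was higher with TGFb than without, non-transfected cells had the lowest mean in either state, and only the top group, SLBP siRNA with TGFb, stood clear of its neighbour. Libraries of a group differed widely and always the same way: replicate 1 was the higher in 8 of 8 groups, by 1.18 to 2.08 times. The log2 fold change for TGFb was 0.61 in non-transfected, 0.43 in FLASH siRNA, 0.55 in NPAT siRNA and 0.83 in SLBP siRNA cells (SE 0.38 in non-transfected cells, adjusted p 0.48, 0.66, 0.51 and 0.2), and for the siRNAs it was between 0.34 and 0.68. No change of SLC2A1 was called, and the interval for TGFb in non-transfected cells ran from -0.23 to 1.44. Other settings did call some of these: with no filter TGFb passed in non-transfected, NPAT siRNA and SLBP siRNA cells (adjusted p 0.0016, 0.0029 and 3.5e-07), as did FLASH and SLBP siRNA without TGFb (0.0027 and 0.035) and SLBP siRNA with it (0.00017). With only the groups compared, TGFb in FLASH siRNA cells (adjusted p 0.042) and FLASH siRNA without TGFb (0.026) passed. With the replicate number as a block, TGFb passed in SLBP siRNA cells (0.90, adjusted p 0.0033). So did FLASH siRNA without TGFb (0.60, 0.019) and SLBP siRNA with it (0.72, 0.0098).

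SLC2A3 (GLUT3, ENSG00000059804.15, chr12:7919230-7936275, minus strand) is a glucose carrier of high affinity, best known from neurons. It was nearly silent in non-transfected cells and present in all siRNA groups. Counts in replicates 1 and 2 were 3 and 8 in non-transfected cells, against 196 and 170 with FLASH siRNA, 69 and 52 with NPAT siRNA and 139 and 80 with SLBP siRNA. With TGFb they were 5 and 7, against 191 and 379, 74 and 178, and 83 and 131. No siRNA library overlapped the non-transfected ones. In CPM the groups ran from 0.206 in non-transfected cells to 10.1 with FLASH siRNA and TGFb, the NPAT and SLBP siRNA groups lying between 2.32 and 4.5. From the summed counts, SLC2A3 was 34.3-fold higher with FLASH siRNA than in non-transfected cells (95% counting interval 18.9 to 69.3), 11.5-fold with NPAT siRNA (6.2 to 23.6) and 18.3-fold with SLBP siRNA (10 to 37.2). With TGFb the ratios were 43.8 (24.9 to 85.4), 20.6 (11.6 to 40.4) and 19 (10.6 to 37.3). These intervals cover counting error only. The fitted log2 fold changes without TGFb were 5.07 (SE 0.59, adjusted p 7.3e-05), 3.49 (SE 0.62, 0.0017) and 4.15 (SE 0.60, 0.00071). With TGFb they were 5.45, 4.30 and 4.22 (adjusted p 4.8e-05, 0.00054 and 0.00054).

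No response of SLC2A3 to TGFb was called. The log2 fold change was 0.15 in non-transfected, 0.53 in FLASH siRNA, 0.96 in NPAT siRNA and 0.22 in SLBP siRNA cells, the NPAT siRNA value with an unadjusted p of 0.049 and an adjusted p of 0.28, and with no overlap between the groups. With no filter that response was called (0.99, adjusted p 0.013). Without TGFb, SLC2A3 was higher with FLASH than with NPAT siRNA by 1.58 (SE 0.44, adjusted p 0.023), in 1 of 2 calls among the 9 genes against 22.3% of all genes. That call was lost when any of the 4 libraries compared was left out (1.41 to 1.76). A processed copy, SLC2A3P1, held 125 to 337 counts per library and 66.2% of the counts of both together, and the near-identical SLC2A14 held 14 counts in all, so counts assigned to SLC2A3 are uncertain to the extent that reads were shared between copies. Its mean transcript length as deposited moved between 1088 and 3483 bases.

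Markers of other cell types also differed with the siRNAs. Endothelial markers (PECAM1, CDH5, VWF, TIE1, TEK, CLDN5) summed to 0 to 0.107 CPM in non-transfected cells, 3.68 to 5.02 with FLASH siRNA, 1.85 to 4.82 with NPAT siRNA and 1.9 to 3.03 with SLBP siRNA. With TGFb the sums were 0.0718 to 0.119, 7.2 to 11.3, 3.34 to 4.34 and 8.81 to 11.5 CPM. Of the 4 that passed the filter, 4 rose with FLASH, 3 with NPAT and 3 with SLBP siRNA without TGFb, and 3 with each siRNA with TGFb. All of these rises began below 1 CPM, so the genes entered the test through other groups and could hardly have been called lower. Of all genes, 20.8%, 18.9% and 15.1% were called higher without TGFb and 17.5%, 13.7% and 12.3% with TGFb. The 9 fibroblast and stellate markers, many of them genes of the mesenchymal state itself, summed to 49.3 to 91.5 CPM in non-transfected cells, 228 to 274 with FLASH, 489 to 866 with NPAT and 170 to 315 with SLBP siRNA, with COL1A1 the most abundant. With TGFb they summed to 2568 to 3013 CPM in non-transfected cells and 2203 to 2396 with FLASH siRNA. The sums were 5020 to 6500 with NPAT and 4004 to 4989 with SLBP siRNA. Most of the sum with TGFb was COL1A1, at 2780 CPM in non-transfected cells and 2240 CPM with FLASH siRNA. Every other marker of the list had a higher mean with FLASH siRNA and TGFb than in non-transfected cells with TGFb, such as THY1 at 45.4 against 6.02 CPM. In bulk RNA, more cells of a type and more RNA per cell cannot be told apart, and the part of these markers in the rise of SLC2A3 was not tested.

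Other carriers of hexoses, lactate and pyruvate gave these counts. Of 12 tested genes of 15, 3 rose with FLASH, 5 with NPAT and 7 with SLBP siRNA without TGFb, and 1, 3 and 1 with TGFb, while none fell. Of these rises, 1, 1 and 2 without TGFb and 1, 2 and 1 with TGFb began below 1 CPM, so those genes entered the test through other groups and could hardly have been called lower. Of all genes, 20.8%, 18.9% and 15.1% were called higher without TGFb and 17.5%, 13.7% and 12.3% with TGFb. The list medians were 0.59, 0.89 and 0.90 without TGFb, against all-gene medians of 0.04, 0.07 and 0.05. With 1 library left out the counts without TGFb became 1 to 2, 1 to 5 and 2 to 7, and those with TGFb 1 to 1, 1 to 2 and 0 to 1. Among list genes, those named here and below kept their calls under every alternative that was run, unless stated. SLC2A8, an intracellular hexose carrier, rose from 4.74 to 13.5 CPM with NPAT siRNA (1.51, adjusted p 6.6e-05). SLC16A3 (MCT4), which exports lactate, rose from 177 to 286 CPM with SLBP siRNA (0.69, adjusted p 0.0019). Under TGFb 2 fell in SLBP siRNA cells, against 4.52% of all genes, a count of 0 to 2 with 1 library left out. In non-transfected, FLASH siRNA and NPAT siRNA cells edgeR called 0, against 6.18%, 4.11% and 5.33% of all genes. There 1, 1 and 4 had an unadjusted p under 0.05, DESeq2 called 0, 0 and 1, and limma-voom called 0, 0 and 1.

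HK2 (hexokinase 2, ENSG00000159399.9, chr2:74833981-74893359, plus strand) traps glucose in the cell by phosphorylation. It stood at 11.5 and 6.39 CPM in non-transfected cells, 21.7 and 16.7 with FLASH siRNA, 18.6 and 10.3 with NPAT siRNA, and 18 and 6.42 with SLBP siRNA. With TGFb the values were 12.7 and 7, 15.1 and 16.7, 16.7 and 11.5, and 14.3 and 7.94. FLASH siRNA libraries were all above the non-transfected ones, the NPAT and SLBP siRNA groups overlapped them, and replicate 1 was the higher in 7 of 8 groups, by up to 2.8 times. The log2 fold change with FLASH siRNA was 1.10 (SE 0.48, adjusted p 0.095) without and 0.69 with TGFb. No change of HK2 was called. With no filter both of these and the NPAT siRNA value of 0.69 without TGFb passed (adjusted p 3.1e-06, 0.0089 and 0.011), and with only the groups compared the first did (0.017). With the replicate number as a block the same values passed (adjusted p 0.003, 0.03 and 0.048).

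PFKFB4 (ENSG00000114268.11, chr3:48517684-48562015, minus strand) sets the level of fructose 2,6-bisphosphate, which steers phosphofructokinase. It stood at 6 and 9.55 CPM in non-transfected cells, 10 and 12.2 with FLASH siRNA, 5.16 and 6.73 with NPAT siRNA, and 6.13 and 10.3 with SLBP siRNA. With TGFb the values were 7.6 and 17.5, 18 and 24.6, 8.43 and 9.82, and 10.2 and 14.9. Here replicate 2 was the higher in 8 of 8 groups, FLASH siRNA with TGFb was the highest group and stood clear of all others, and NPAT siRNA was the lowest group within each TGFb state. For TGFb the log2 fold change was 0.69, 0.94, 0.62 and 0.61 in non-transfected, FLASH, NPAT and SLBP siRNA cells (adjusted p 0.39, 0.21, 0.45 and 0.34), so the 4 estimates pointed one way and none was called. With no filter all 4 passed (adjusted p 0.023, 0.00023, 0.049 and 0.03), and with only the groups compared that in FLASH siRNA cells did (0.0078). Against non-transfected cells PFKFB4 changed by 0.51 with FLASH and -0.39 with NPAT siRNA, and with TGFb by 0.76 and -0.46, none called. With no filter the value of 0.76 became 0.73 and passed (adjusted p 0.0038). With the replicate number as a block, TGFb passed in non-transfected, FLASH and SLBP siRNA cells (adjusted p 0.042, 0.0057 and 0.031). FLASH siRNA then passed too, without and with TGFb (0.036 and 0.0034). With TGFb, PFKFB4 was higher with FLASH than with NPAT siRNA by 1.22 (SE 0.37, adjusted p 0.048), 1 of 2 calls among the 9 genes against 13.6% of all genes. The call was lost with relative log expression scaling (adjusted p 0.051), without mitochondrial genes (0.054), with an offset for transcript length (0.099) and when any of the 4 libraries was left out (0.95 to 1.43). PFKFB4 overlaps UCN2 on the same strand, and UCN2 held 2948 counts over all libraries.

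PGK1 (phosphoglycerate kinase 1, ENSG00000102144.13, chrX:77910739-78129296, plus strand, overlapping ATP7A on the same strand) makes ATP in the lower part of glycolysis. Its libraries lay at 364 and 345 CPM in non-transfected cells, 350 and 337 with FLASH siRNA, 302 and 297 with NPAT siRNA, and 324 and 293 with SLBP siRNA. With TGFb they lay at 368 and 365, 355 and 363, 339 and 328, and 355 and 352. The whole range was narrow, and the NPAT and SLBP siRNA groups without TGFb were the lowest. PGK1 fell with NPAT siRNA by 0.24 on the log2 scale (SE 0.08, adjusted p 0.032). That small call was lost with no filter (adjusted p 0.081), with only the groups compared (0.12) and when any of the 4 libraries was left out (-0.28 to -0.21).

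LDHA (lactate dehydrogenase A, ENSG00000134333.13, chr11:18394388-18408425, plus strand) turns pyruvate into lactate. It stood at 523 and 471 CPM in non-transfected cells, 463 and 446 with FLASH siRNA, 428 and 471 with NPAT siRNA, and 413 and 351 with SLBP siRNA. With TGFb the values were 526 and 490, 484 and 472, 466 and 511, and 441 and 444. SLBP siRNA without TGFb was the lowest group and stood apart from all others. LDHA fell there by 0.38 on the log2 scale (SE 0.10, adjusted p 0.016). The call was lost with an offset for transcript length (adjusted p 0.06), with only the groups compared (0.16), without non-transfected replicate 1 (-0.30) and without SLBP siRNA replicate 2 (-0.29). Its other log2 fold changes for TGFb or an siRNA lay between -0.20 and 0.21.

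**Figure D3:**
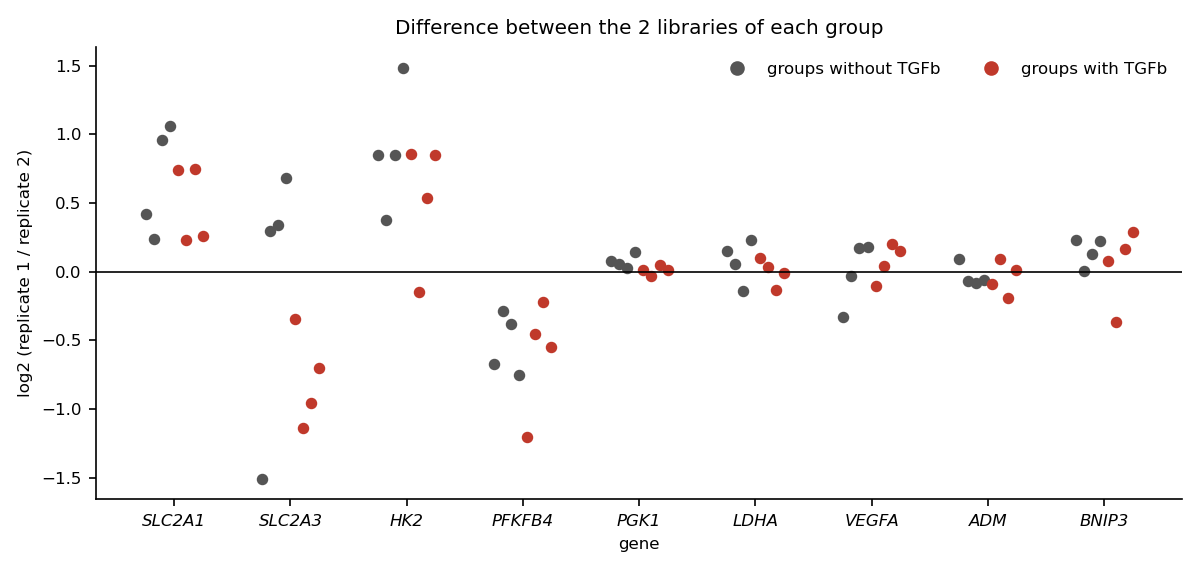
log2 ratio of replicate 1 over replicate 2 in CPM (y axis) for each tested gene (x axis), 1 point per group, grey without and red with TGFb. SLC2A1 lies above 0 in 8 of 8 groups and HK2 in 7 of 8, PFKFB4 lies below 0 in 8 of 8, and PGK1, LDHA, VEGFA and ADM stay close to 0.

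Of 19 tested glycolytic enzymes of 23, 4 were higher and 2 lower with FLASH siRNA, 3 and 2 with NPAT siRNA, and 0 and 6 with SLBP siRNA without TGFb. The calls with FLASH and NPAT siRNA lie near the 33.8% and 32.3% of all genes called, so nothing about the list is read from them. With SLBP siRNA 25.9% of all genes were called, 15.1% higher and 10.8% lower. The 0 and 6 of the list thus leaned downwards while all genes did not. The list median was 0.07 there, and the list was not tested as a set. With TGFb the counts were 4 and 2, 4 and 1, and 1 and 3, against 26.6%, 24.1% and 19.9% of all genes called. TGFb gave 0 higher and 1 lower in non-transfected, 2 and 0 in NPAT siRNA and 4 and 0 in SLBP siRNA cells. Among all genes it called 6.18%, 4.11%, 5.33% and 12.6% in non-transfected, FLASH, NPAT and SLBP siRNA cells. In FLASH siRNA cells edgeR called 0 for TGFb, with 5 at an unadjusted p under 0.05, 2 called by DESeq2 and 1 by limma-voom. With 1 library left out, the calls in either direction became 4 to 5, 2 to 6 and 4 to 7 for the siRNAs without TGFb, 3 to 5, 1 to 3 and 1 to 4 with TGFb, and 0 to 0, 0 to 0, 0 to 1 and 1 to 4 for TGFb. The list medians lay between -0.15 and 0.18. ENO1 (enolase 1) fell from 2460 to 1612 CPM with FLASH siRNA (-0.61, adjusted p 0.001) and to 1544 CPM with NPAT siRNA (-0.67, 0.0008). LDHB, the lactate dehydrogenase that favours the reverse reaction, fell from 261 to 163 CPM with FLASH siRNA (-0.68, adjusted p 0.0004), where LDHA did not pass (-0.13). PGAM1, the enzyme before enolase, fell from 115 to 82.4 CPM with SLBP siRNA with TGFb (-0.48, adjusted p 0.0024).

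Regulators of glycolytic flux and glycogen (26 tested of 28) included PFKFB3, which responded to TGFb. PFKFB3, the relative of PFKFB4 most tied to high glycolysis, rose with TGFb from 22.2 to 48.8 CPM in non-transfected cells (1.14, adjusted p 8.3e-05), from 16.2 to 35 CPM in NPAT siRNA cells (1.11, 0.00018) and from 22.2 to 59.5 CPM in SLBP siRNA cells (1.42, 9.8e-06). In FLASH siRNA cells it rose from 24.9 to 42.1 CPM (0.76, adjusted p 0.0026), a call lost with the length offset (0.58). In SLBP siRNA cells TXNIP, a brake on glucose uptake, fell from 72 to 20 CPM (-1.85, adjusted p 0.0039). In all 3 and 1 genes of the list were higher and lower for TGFb in non-transfected cells, 2 and 2 in FLASH siRNA, 2 and 0 in NPAT siRNA and 4 and 3 in SLBP siRNA cells. TGFb called 6.18%, 4.11%, 5.33% and 12.6% of all genes in these cells. With FLASH, NPAT and SLBP siRNA the counts were 6 and 1, 3 and 3, and 4 and 3 without TGFb, and 6 and 0, 3 and 3, and 3 and 2 with TGFb. Of all genes, 33.8%, 32.3% and 25.9% were called without TGFb and 26.6%, 24.1% and 19.9% with TGFb. The siRNA counts lie near or below these shares, so nothing about the list is read from them. PYGL, a glycogen phosphorylase, rose from 51.1 to 92.5 CPM with FLASH siRNA (0.86, adjusted p 0.0001), and its relative PYGB from 241 to 406 CPM with NPAT siRNA (0.75, 0.00046). Leaving out 1 library moved the calls in either direction to between 1 and 10. List medians lay between -0.08 and 0.21.

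In the pentose phosphate pathway (11 genes), NPAT siRNA without TGFb gave 4 higher and 4 lower, and PGD, the second oxidative enzyme of the pathway, rose from 53.3 to 129 CPM (1.28, adjusted p 0.0019). FLASH siRNA raised PGD to 113 CPM (1.08, adjusted p 0.0038), with 2 higher and 1 lower in the list, and SLBP siRNA gave 2 and 1. With TGFb the counts were 1 and 1, 1 and 4, and 0 and 0, and for TGFb 1 and 0, 1 and 0, 0 and 0, and 2 and 1. Where edgeR called 0, 5 genes (SLBP siRNA with TGFb) and 2 genes (TGFb in NPAT siRNA cells) had an unadjusted p under 0.05, DESeq2 called 0 and 2, and limma-voom called 0 and 0. The medians of this list ran from -0.10 to 0.59, and the calls from 0 to 6 with 1 library left out. Of the 25 genes that bring pyruvate into mitochondria or turn the citrate cycle, 3 were higher and 11 lower with NPAT siRNA and 0 and 11 with SLBP siRNA without TGFb, against 3 and 3 with FLASH siRNA. Of all genes, 20.8%, 18.9% and 15.1% were called higher with FLASH, NPAT and SLBP siRNA without TGFb, and 12.9%, 13.3% and 10.8% lower. With TGFb these shares were 17.5%, 13.7% and 12.3% higher and 9.06%, 10.3% and 7.6% lower. For the response to TGFb they were 4.54%, 3.35%, 3.42% and 8.07% higher and 1.64%, 0.755%, 1.92% and 4.52% lower. With TGFb the citrate cycle list gave 3 and 2, 1 and 8, and 1 and 8, and for TGFb 0 and 1, 0 and 0, 0 and 3, and 0 and 2. In FLASH siRNA cells, where edgeR called 0 for TGFb, 9 had an unadjusted p under 0.05, DESeq2 called 1 and limma-voom 0. The medians ran from -0.24 to -0.06. MPC1, a subunit of the mitochondrial pyruvate carrier, fell from 18.2 to 9.01 CPM with NPAT siRNA (-1.02, adjusted p 0.0033), and SUCLG1, of succinyl-CoA ligase, from 74.1 to 37.8 CPM (-0.97, 0.0014). With 1 library left out, the 14 calls with NPAT siRNA without TGFb became 5 to 8, the 11 with SLBP siRNA 4 to 12, the 6 with FLASH siRNA 2 to 5, those with TGFb 1 to 4, 2 to 8 and 1 to 5, and those for TGFb 0 to 3. Set directly against each other without TGFb, FLASH and NPAT siRNA gave 3 higher and 2 lower of the 25 citrate cycle genes and 0 and 1 of the 11 pentose phosphate genes, against 22.3% of all genes called.

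VEGFA (vascular endothelial growth factor A, ENSG00000112715.21, chr6:43770184-43786487, plus strand) calls blood vessels into poorly supplied tissue. It stood at 153 and 192 CPM in non-transfected cells, 129 and 132 with FLASH siRNA, 143 and 127 with NPAT siRNA, and 118 and 104 with SLBP siRNA. With TGFb it stood at 202 and 217, 150 and 146, 205 and 178, and 158 and 142. Both libraries of every group with TGFb lay above both of the same cells without it, and both libraries of every siRNA group without TGFb lay below both non-transfected ones. With TGFb the FLASH and SLBP siRNA groups lay below the non-transfected one, and the NPAT siRNA group overlapped it.

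For TGFb, VEGFA rose by 0.50 in NPAT siRNA cells (SE 0.12, adjusted p 0.031) and by 0.44 in SLBP siRNA cells (adjusted p 0.033). The estimates of 0.28 in non-transfected and 0.18 in FLASH siRNA cells did not pass (adjusted p 0.24 and 0.53). Whether these responses differ was tested and not shown: the interactions with FLASH, NPAT and SLBP siRNA were -0.10, 0.22 and 0.16, each with an adjusted p of 1. The NPAT siRNA call was lost when any of its 4 libraries was left out (0.42 to 0.60) and with only the groups compared (adjusted p 0.12). The SLBP siRNA call was lost without SLBP siRNA replicate 2 (0.36), without either SLBP siRNA library with TGFb (0.36 and 0.51), with an offset for transcript length (adjusted p 0.076) and with only the groups compared (0.18).

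With the siRNAs, VEGFA fell without TGFb by 0.40 on the log2 scale for FLASH (adjusted p 0.024), by 0.35 for NPAT (0.043) and by 0.64 for SLBP (0.0032). With TGFb it fell by 0.50 for FLASH (adjusted p 0.0093) and by 0.48 for SLBP (0.016), and the NPAT value of -0.13 did not pass (0.46). Without non-transfected replicate 2, the higher of the controls, the FLASH and NPAT values shrank to -0.23 and -0.18 and were not called. The FLASH call was also lost without FLASH siRNA replicate 1 (-0.44) or 2 (-0.42), and the NPAT call without NPAT siRNA replicate 1 (-0.44) or 2 (-0.27) and with only the groups compared (adjusted p 0.11). The SLBP call without TGFb was lost only with only the groups compared (adjusted p 0.081). With TGFb, the FLASH call was lost without non-transfected replicate 2 (-0.44) or FLASH siRNA replicate 2 (-0.50), and the SLBP call without non-transfected replicate 2 (-0.43) or SLBP siRNA replicate 2 (-0.41).

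ADM (adrenomedullin, ENSG00000148926.9, chr11:10304680-10307397, plus strand) encodes a secreted peptide that widens vessels. Its libraries agreed closely, and it was called in 4 of the 6 comparisons of one siRNA with another. It stood at 237 and 222 CPM in non-transfected cells, 160 and 168 with FLASH siRNA, 230 and 243 with NPAT siRNA, and 327 and 341 with SLBP siRNA. With TGFb it stood at 197 and 210, 143 and 134, 167 and 191, and 158 and 157. SLBP siRNA without TGFb was far above every other group, and with TGFb the same cells were among the lowest. In the order of the 8 means, from FLASH siRNA with TGFb up to SLBP siRNA without it, neighbours overlapped in only 2 places: FLASH siRNA without TGFb with NPAT siRNA with TGFb, and non-transfected with NPAT siRNA cells, both without TGFb.

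Without TGFb, ADM fell with FLASH siRNA by 0.49 on the log2 scale (adjusted p 0.0013), rose with SLBP siRNA by 0.54 (0.0014) and did not change detectably with NPAT siRNA (0.04). Set directly against each other, FLASH siRNA was lower than NPAT siRNA by 0.53 (adjusted p 0.0018), with 22.3% of all genes called as given above. FLASH siRNA was lower than SLBP siRNA by 1.03 (adjusted p 4.4e-05), the 1 call among the 9 genes against 26.2% of all genes. NPAT siRNA was lower than SLBP siRNA by 0.50 (adjusted p 0.0029), again 1 call, against 16% of all genes. With only the groups compared, the SLBP siRNA rise and the difference of NPAT from SLBP siRNA were not called (adjusted p 0.071 and 0.15).

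With TGFb present, ADM was below non-transfected cells with FLASH siRNA by 0.55 (adjusted p 0.00079) and with SLBP siRNA by 0.37 (0.013), while the NPAT siRNA value was -0.18 (0.16). The SLBP siRNA call was lost without non-transfected replicate 2 (-0.32), SLBP siRNA replicate 1 (-0.37) or SLBP siRNA replicate 2 (-0.36). FLASH siRNA was lower than NPAT siRNA by 0.37 (adjusted p 0.018), a call lost without FLASH siRNA replicate 2 (-0.36) or NPAT siRNA replicate 2 (-0.27). NPAT siRNA against SLBP siRNA with TGFb gave 0.19 for ADM (adjusted p 0.2). That comparison called 0 of the 9 genes by edgeR against 12.4% of all genes, with 2 at an unadjusted p under 0.05 and 1 called by DESeq2.

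TGFb lowered ADM by 1.08 on the log2 scale in SLBP siRNA cells (adjusted p 9.3e-06) and by 0.40 in NPAT siRNA cells (0.021), while the values of -0.18 in non-transfected and -0.24 in FLASH siRNA cells did not pass (0.34 and 0.19). The NPAT siRNA call was lost with no filter (adjusted p 0.071), with only the groups compared (0.23), without NPAT siRNA replicate 2 (-0.36) and without NPAT siRNA replicate 1 with TGFb (-0.28). The response in SLBP siRNA cells differed from that in non-transfected cells by -0.91 (SE 0.13, 95% interval -1.18 to -0.63, adjusted p 0.039). This was 1 of 4 genes called among 17743, or 0.0225%, a number that depends strongly on the fit: it was 271 with no filter, 32 with DESeq2, 2 with the length offset, and 1 each with limma-voom and with only the groups compared. The interactions with FLASH and NPAT siRNA were -0.06 and -0.22 for ADM, each with an adjusted p of 1. Those 2 tests called 0 of the 9 genes by edgeR, against 0.0845% and 0.0451% of all genes, with 1 and 0 of the 9 at an unadjusted p under 0.05. The SLBP interaction kept its size and missed the threshold with relative log expression scaling (adjusted p 0.053), without mitochondrial genes (0.059), with an offset for transcript length (0.063), with limma-voom (0.054) and with only the groups compared (0.35). It was also not called without any 1 of 7 of the 8 libraries (-0.95 to -0.85), SLBP siRNA replicate 1 being the exception.

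**Figure D4:**
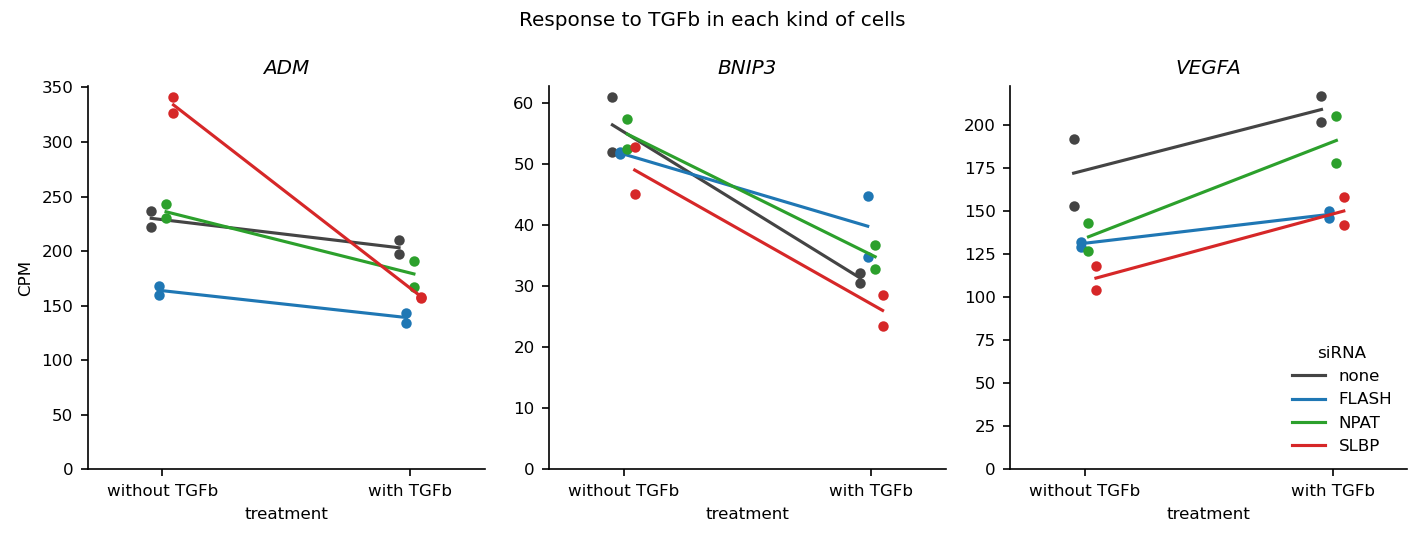
CPM of ADM, BNIP3 and VEGFA without and with TGFb (x axis), coloured by siRNA, with 1 point per library and lines joining the means of 2 libraries. ADM falls from 334 to 158 CPM in SLBP siRNA cells and less in the others, BNIP3 is lower and VEGFA higher with TGFb in every kind of cells, although only part of these changes passed.

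Relatives and receptors of VEGFA and ADM were called mostly upwards with the siRNAs. Of 17 tested genes of 18, 9 were higher and 1 lower with FLASH siRNA, 11 and 1 with NPAT siRNA, and 8 and 1 with SLBP siRNA without TGFb. With TGFb the counts were 9 and 1, 8 and 0, and 8 and 1. Most of these rises began from near silence: 8, 6 and 5 of the genes called higher without TGFb, and 8, 5 and 6 of those with TGFb, stood below 1 CPM in non-transfected cells and entered the test only through other groups. Of all genes, 20.8%, 18.9% and 15.1% were called higher without TGFb and 17.5%, 13.7% and 12.3% with TGFb. Endothelial markers moved in the same comparisons with the values given above, and their part was not tested. PGF (placental growth factor, which binds a VEGF receptor) rose from 3.96 to 14.1 CPM with FLASH siRNA (1.83, adjusted p 0.00067) and to 12 CPM with NPAT siRNA (1.59, 0.0021). CALCRL, the receptor that binds adrenomedullin with RAMP partners, rose from 2.41 to 14.3 CPM with SLBP siRNA (2.57, adjusted p 0.00019), in the cells in which ADM was highest. VEGFC, a growth factor for lymph vessels, rose from 17.6 to 37.4 CPM with SLBP siRNA (1.09, adjusted p 0.00033), where VEGFA fell.

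Under TGFb, NRP2, a co-receptor of VEGF family members, rose in all 4 kinds of cells: from 17.1 to 149 CPM in non-transfected (3.12, adjusted p 2.7e-07), from 17.8 to 107 in FLASH siRNA (2.59, 2.5e-06), from 20.8 to 178 in NPAT siRNA (3.10, 8.3e-07) and from 9.51 to 90.7 in SLBP siRNA cells (3.25, 1.5e-07). TGFb raised 3, 3, 2 and 4 genes of this list in these cells and lowered none, and 1, 1, 1 and 3 of those raised began below 1 CPM. It raised 4.54%, 3.35%, 3.42% and 8.07% of all genes and lowered 1.64%, 0.755%, 1.92% and 4.52%. The list medians were 1.83, 1.59 and 1.09 for the siRNAs without TGFb. Leaving out 1 library brought the calls with the siRNAs to between 2 and 9, and those for TGFb to between 1 and 5.

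CA9 (carbonic anhydrase 9, ENSG00000107159.12, chr9:35673856-35681159, plus strand) sits on the cell surface, acidifies the surroundings and is the gene most used as a marker of hypoxia. It was all but silent. Counts in replicates 1 and 2 were 0 and 0 in non-transfected cells, 3 and 9 with FLASH siRNA, 2 and 4 with NPAT siRNA, and 1 and 2 with SLBP siRNA. With TGFb they were 0 and 0, 3 and 4, 2 and 1, and 0 and 0. Counts above 0 stood only in siRNA groups. A floor of 3 counts was set for the non-transfected group. The CA9 level was 4.12 times that floor with FLASH siRNA, 2.09 times with NPAT siRNA and 2.15 times with FLASH siRNA and TGFb. These ratios rest on 12, 6 and 7 counts, leave out the counting error of those counts and were not tested. The other groups were at or under that floor. ARHGEF39 lies on the opposite strand over part of CA9 with 6528 counts over all libraries. The use of strand in counting is not given in the sources used here, so the gene of origin of reads in the shared part is uncertain. CA9 still held 0 counts in every non-transfected library.

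Of the other carbonic anhydrases and acid carriers (15 tested of 19), 7 rose with FLASH, 5 with NPAT and 3 with SLBP siRNA without TGFb, and 7, 7 and 5 with TGFb, and none fell. Of these, 4, 3 and 1 without TGFb and 3, 3 and 3 with TGFb began below 1 CPM. Of all genes, 20.8%, 18.9% and 15.1% were called higher without TGFb and 17.5%, 13.7% and 12.3% with TGFb. CA2, a cytosolic carbonic anhydrase, rose from 3.96 to 10.8 CPM with FLASH siRNA (1.44, adjusted p 0.00029). For TGFb the list gave 1 higher and 1 lower in non-transfected, 1 and 0 in FLASH siRNA, 1 and 0 in NPAT siRNA and 3 and 2 in SLBP siRNA cells, where CA13 rose from 7.62 to 19.5 CPM (1.36, adjusted p 0.00014) and CA11 fell from 20.1 to 6.25 CPM (-1.68, 0.0036). TGFb called 6.18%, 4.11%, 5.33% and 12.6% of all genes in non-transfected, FLASH, NPAT and SLBP siRNA cells. The medians of the list were 0.82, 0.82 and 0.48 for the siRNAs without TGFb. With 1 library left out the calls became 5 to 6, 3 to 6 and 1 to 5 for these, 4 to 7, 3 to 6 and 3 to 5 with TGFb, and 0 to 5 for TGFb.

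BNIP3 (ENSG00000176171.11, chr10:131966455-131982013, minus strand) encodes a mitochondrial protein that marks mitochondria for removal and can promote cell death. It was the gene of the 9 that TGFb lowered in most kinds of cells. It stood at 60.9 and 51.9 CPM in non-transfected cells, 51.9 and 51.6 with FLASH siRNA, 57.4 and 52.4 with NPAT siRNA, and 52.8 and 45.1 with SLBP siRNA. With TGFb it stood at 32.2 and 30.5, 34.8 and 44.8, 36.7 and 32.8, and 28.6 and 23.4. All 8 libraries with TGFb lay below all 8 without it. The siRNA groups without TGFb overlapped the non-transfected one.

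TGFb lowered BNIP3 by 0.85 on the log2 scale in non-transfected cells (SE 0.15, adjusted p 0.0035), by 0.66 in NPAT siRNA cells (0.019) and by 0.91 in SLBP siRNA cells (0.0013), while the FLASH siRNA value was -0.38 (0.2). The first and the last of the 3 calls held under every alternative run. The NPAT siRNA call was lost when any of its 4 libraries was left out (-0.73 to -0.58) and with only the groups compared (adjusted p 0.078). The difference between the FLASH siRNA and non-transfected responses was 0.47, with an unadjusted p of 0.04 and an adjusted p of 1. No change of BNIP3 with an siRNA was called, the values lying between -0.27 and 0.34. The highest, FLASH siRNA with TGFb, had an unadjusted p of 0.035 and an adjusted p of 0.1, with no overlap between the groups. With the replicate number as a block that value passed (0.35, adjusted p 0.046). With TGFb, BNIP3 was higher with FLASH than with SLBP siRNA by 0.61 (adjusted p 0.018), the 1 call among the 9 genes in that comparison against 13% of all genes. It was lost with an offset for transcript length (adjusted p 0.068), without FLASH siRNA replicate 2 (0.39) and without SLBP siRNA replicate 2 (0.47).

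Of the other mitophagy genes (18 in the table, all tested), TGFb raised 1 and lowered 0 in each kind of cells. With 1.64%, 0.755%, 1.92% and 4.52% of all genes called lower, 0 of 18 is near the background. The shares of all genes called higher were 4.54%, 3.35%, 3.42% and 8.07%. GABARAPL1, which docks receptors such as BNIP3 to the growing autophagosome, rose from 76.8 to 163 CPM in FLASH siRNA cells (1.09, adjusted p 0.00028). With the siRNAs, 2 were higher and 5 lower with FLASH, 3 and 2 with NPAT, and 1 and 6 with SLBP siRNA without TGFb, and 2 and 5, 1 and 1, and 1 and 5 with TGFb. Of all genes, 33.8%, 32.3% and 25.9% were called in either direction without TGFb and 26.6%, 24.1% and 19.9% with TGFb. BNIP3L, the closest relative of BNIP3, fell from 53 to 27.9 CPM with SLBP siRNA without TGFb (-0.92, adjusted p 0.00061), where BNIP3 did not pass (-0.20). GABARAP fell from 142 to 95.3 CPM (-0.58, adjusted p 0.00075) and the mitophagy receptor FUNDC1 from 23.1 to 15.7 CPM (-0.55, 0.0029) with FLASH siRNA. List medians lay between -0.29 and 0.19, and with 1 library left out the calls became 0 to 4 for TGFb and 1 to 9 for the siRNAs.

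Among transcripts of the oxygen sensor, EPAS1 and CITED2 responded to TGFb, and ARNT and EGLN1 to siRNAs. HIF1A lay between 88.8 and 128 CPM as group means and was called in none of the 10 comparisons of an agent with its absence (-0.25 to 0.32), and VHL was likewise not called (-0.32 to 0.19). HIF1A was lower with FLASH than with SLBP siRNA without TGFb (-0.52, adjusted p 0.0068), a call lost with only the groups compared (-0.55), without FLASH siRNA replicate 1 (-0.50) and without SLBP siRNA replicate 2 (-0.37). EPAS1, the alpha subunit of HIF-2, rose with TGFb from 252 to 587 CPM in non-transfected cells (1.22, adjusted p 0.011), by 1.01 in NPAT siRNA cells (0.033) and by 1.19 in SLBP siRNA cells (0.0074), with 0.85 in FLASH siRNA cells (0.081). These calls were lost with an offset for transcript length in non-transfected and NPAT siRNA cells, with only the groups compared in SLBP siRNA cells (1.18), and without single libraries. In non-transfected cells those were replicate 2 without TGFb (1.06) and replicate 1 with TGFb (1.01). In SLBP siRNA cells they were replicate 2 without TGFb (0.94) and replicate 1 with TGFb (0.94), and in NPAT siRNA cells they were any of the 4 (0.82 to 1.21). CITED2, which competes with HIF for its coactivators, fell with TGFb in all 4 kinds of cells, from 158 to 72.5 CPM in non-transfected (-1.13, adjusted p 0.00027), from 125 to 67.1 in FLASH siRNA (-0.90, 0.0022), from 193 to 82.9 in NPAT siRNA (-1.22, 0.00022) and from 188 to 71.6 in SLBP siRNA cells (-1.40, 3.3e-05).

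With the siRNAs, ARNT was 0.36 to 0.51 lower on the log2 scale in all 6 comparisons. Its fall with FLASH siRNA without TGFb, from 88.4 to 61.9 CPM (-0.51, adjusted p 0.0025), held under every alternative, and each of the other 5 was lost without non-transfected replicate 2 of the same TGFb state (-0.36 to -0.31) and without at least 1 other library (-0.40 to -0.24). EGLN1 fell with FLASH siRNA from 53.8 to 36.7 CPM without TGFb (-0.55, adjusted p 0.0026) and with NPAT siRNA to 36.8 CPM (-0.55, 0.0033), and the SLBP siRNA value was -0.23 (0.14). EGLN3, itself a HIF target, rose from 0.202 to 2.58 CPM with FLASH siRNA (3.64, adjusted p 5e-05), to 1.14 with NPAT siRNA (2.46, 0.0013) and to 1.12 with SLBP siRNA (2.44, 0.0018), from 6 and 5 counts in the non-transfected libraries. Like SLC2A3 it passed the filter only through the siRNA groups and had to differ, so these calls add nothing as evidence. In the HIF pathway list of 17 genes, 2 were higher and 5 lower with FLASH, 3 and 4 with NPAT and 2 and 1 with SLBP siRNA without TGFb, and 2 and 4, 2 and 4, and 2 and 1 with TGFb. Of the higher ones, 2, 2 and 1 without TGFb and 2, 2 and 2 with TGFb began below 1 CPM. Of all genes, 33.8%, 32.3% and 25.9% were called in either direction without TGFb and 26.6%, 24.1% and 19.9% with TGFb. For TGFb the counts were 1 and 1, 0 and 1, 1 and 1, and 1 and 2. TGFb called 6.18%, 4.11%, 5.33% and 12.6% of all genes in the same order. List medians lay between -0.16 and 0.06. Leaving out 1 library brought the calls with the siRNAs to between 1 and 7 and those for TGFb to between 1 and 5.

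Other HIF target genes, which hold none of the 10 but share EGLN3 with the pathway list, were called higher more often than lower, as were all genes. Of 35 tested of 36, TGFb gave 8 higher and 2 lower in non-transfected, 7 and 1 in FLASH siRNA, 8 and 1 in NPAT siRNA and 15 and 1 in SLBP siRNA cells, with list medians of 0.29, 0.18, 0.21 and 0.48. All genes gave 4.54%, 3.35%, 3.42% and 8.07% higher and 1.64%, 0.755%, 1.92% and 4.52% lower in these cells. The counts of higher genes lay above those shares, and the list was not tested as a set. The siRNAs gave 12 and 4, 13 and 4, and 12 and 7 without TGFb and 8 and 3, 12 and 2, and 9 and 6 with TGFb. All-gene shares without TGFb were 20.8%, 18.9% and 15.1% higher and 12.9%, 13.3% and 10.8% lower. With TGFb they were 17.5%, 13.7% and 12.3% higher and 9.06%, 10.3% and 7.6% lower. Among the list genes called higher, 3, 3 and 3 without TGFb and 3, 3 and 2 with TGFb began below 1 CPM. With 1 library left out the calls became 7 to 9, 5 to 7, 4 to 10 and 12 to 15 for TGFb, 10 to 14, 10 to 14 and 13 to 18 for the siRNAs without TGFb, and 10 to 11, 5 to 10 and 9 to 14 with TGFb. ANGPTL4, a secreted inhibitor of lipoprotein lipase and also a known target of TGFb, rose with TGFb from 16.3 to 174 CPM in non-transfected cells (3.41, adjusted p 2.4e-06). With the siRNAs the members that rose included LOX and LOXL2, which crosslink collagen. LOX rose from 1.74 to 5.58 CPM with FLASH siRNA (1.68, adjusted p 0.00074), and LOXL2 from 32.9 to 104 CPM with NPAT siRNA (1.66, 4.2e-05). NDRG1, a widely used hypoxia marker, rose from 16.8 to 53.4 CPM with FLASH siRNA (1.67, adjusted p 9.4e-05) and to 40.2 CPM with NPAT siRNA (1.26, 0.00086). P4HA2, a collagen prolyl hydroxylase, fell from 49.4 to 20.8 CPM with SLBP siRNA (-1.24, adjusted p 3e-05).

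**Figure D5:**
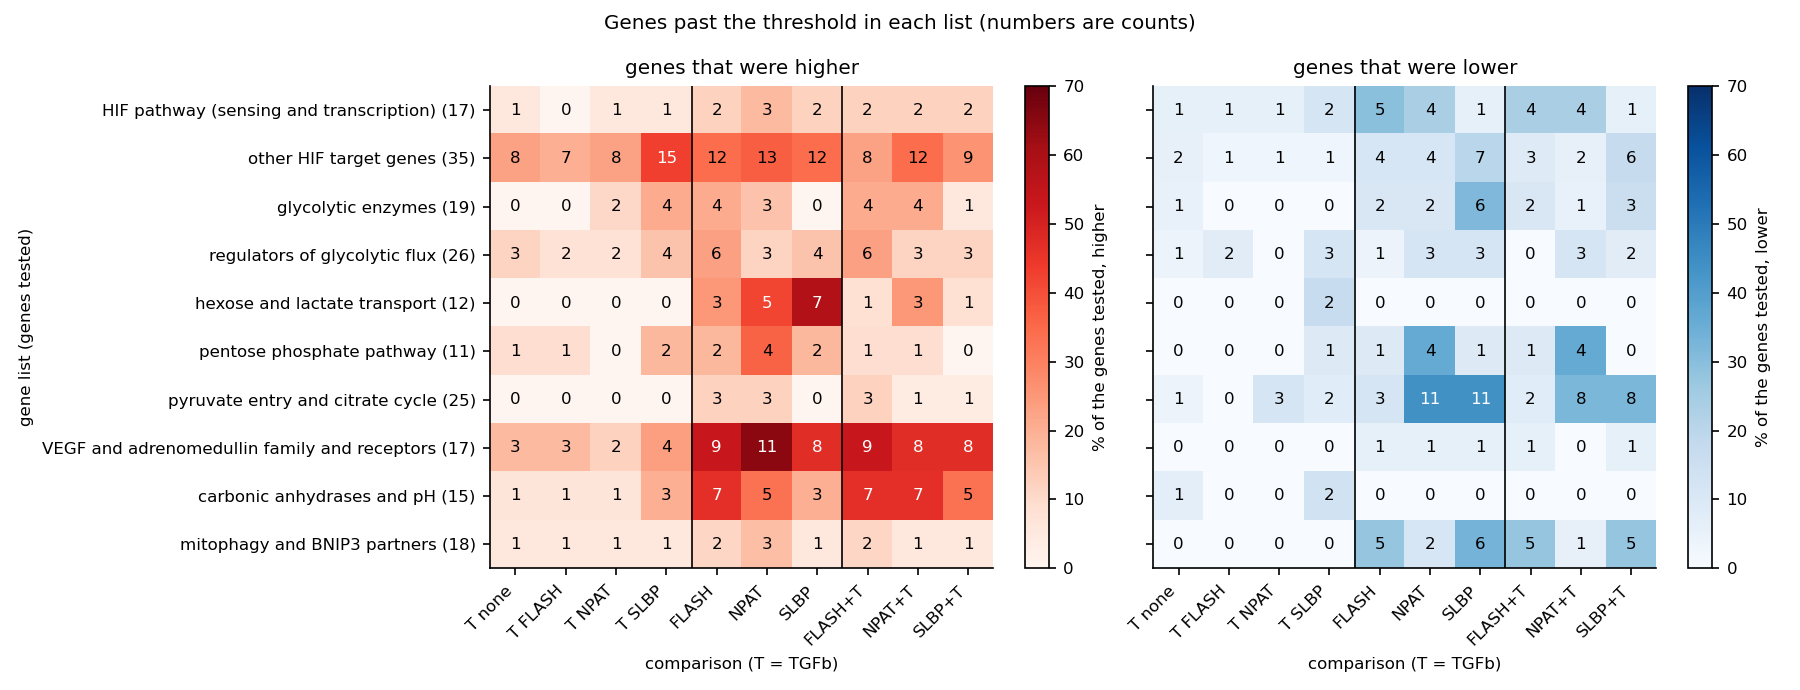
Number of genes called higher (left, red) and lower (right, blue) in each of 10 lists (rows, with the genes tested) for TGFb in each kind of cells, each siRNA without TGFb and each siRNA with TGFb (columns). Colour gives the percentage of the genes tested; calls with the siRNAs are mostly upwards among VEGF and adrenomedullin relatives and mostly downwards among pyruvate and citrate cycle genes with NPAT and SLBP siRNA. Most of the rises among VEGF and adrenomedullin relatives began below 1 CPM in non-transfected cells, so those genes could hardly have been called lower.

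The 10 genes did not share one pattern over the 8 groups. Among the 36 pairs of the 9 tested genes, Pearson's r over the 8 group means of log2 CPM ran from -0.82 for SLC2A1 and BNIP3 to 0.88 for VEGFA and LDHA. As a description, the gene with the most similar pattern among 11349 candidates of at least 5 CPM was IL4R for SLC2A1 (r = 0.994), IGFBP2 for SLC2A3 (0.988), FAM222A for HK2 (0.989) and PMAIP1 for PFKFB4 (0.962). For PGK1 it was KLHL26 (0.975), for LDHA DYRK2 (0.982), for VEGFA NARS (0.971) and for ADM ETFRF1 (0.983). All these points rest on the same 8 means and the same libraries.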

How the data were processed

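PANC-1 RNA was sequenced after poly(A) selection with a stranded kit, per the labels' protocols. Per the submitters' processing notes, STAR 2.4.2a and RSEM 1.2.31 were used with build GRCh38.p10. The annotation release and the strand setting of the counting are not given in the sources used here. The authors deposited, per gene and library, expected counts from RSEM, TPM and the mean transcript length and effective length in bases. A further 16 columns of FPKM as deposited by the authors were not used.

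Expected counts were rounded to whole numbers. Genes that failed edgeR's filterByExpr were left out, which kept 17743. In edgeR 4.0.16 all 16 libraries entered 1 model, with a mean for each of the 8 groups and TMM scaling (quasi-likelihood, 8 residual degrees of freedom, R 4.3.3), and p values were adjusted by Benjamini-Hochberg over all tested genes with a threshold of 0.05. CPM uses the same library sizes. TPM serves levels between genes, and CPM serves levels of 1 gene between groups. limma 3.58.1 (voom) and DESeq2 1.42.0 were alternatives, and the model was tested on simulated data. Of 58219 gene IDs, 57881 matched GENCODE 29 (GRCh38), which gave positions and overlapping genes. Promoter windows came from RefSeq. Libraries of 23.8 to 30.8 M counts leave genes of a few counts, such as CA9, limited by counting error.

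The 10 genes and all lists were chosen with earlier results of these data known. Named list genes were up to 4 per list and comparison with the largest absolute log2 fold change among those called, at a mean of at least 5 CPM over all libraries, plus HIF1A, EPAS1, ARNT, EGLN1, EGLN3 and VHL. Those printed were then taken, with their values seen, from genes whose calls held in every alternative, except where losses are given. Some genes that the rule names are not reported here. Titles of the samples name day 3, whereas the design speaks of 4 days from transfection.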

Additional observations from a re-analysis of the deposited data

Results flagged for a closer look

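ADM stood out because its response to TGFb differed between kinds of cells in a test of the difference itself. The interaction of SLBP siRNA and TGFb was -0.91 on the log2 scale (SE 0.13, adjusted p 0.039). ADM stood at 327 and 341 CPM in SLBP siRNA cells without TGFb and at 158 and 157 CPM with it, against 237 and 222 CPM and 197 and 210 CPM in non-transfected cells. The size held under every alternative run and the call did not, with an adjusted p of 0.053 to 0.35 where it was lost with all libraries kept.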

How the results depend on the processing

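Of the 32 called changes among the 9 tested genes, 25 stood in every alternative that kept all libraries and groups, and 13 in every alternative run. No called change of these genes turned its sign. With no filter, the number of the 9 called became 3, 1, 5 and 5 for TGFb in non-transfected, FLASH, NPAT and SLBP siRNA cells, 6 and 5 for FLASH siRNA without and with TGFb, 4 for FLASH against NPAT siRNA with TGFb, and 3 and 3 for FLASH against SLBP siRNA. With the replicate number as a block it became 2, 1 and 5 for TGFb in non-transfected, FLASH and SLBP siRNA cells, 6 and 6 for FLASH siRNA, 4 and 4 for FLASH against NPAT siRNA, 3 and 3 for FLASH against SLBP siRNA, and 2 for NPAT against SLBP siRNA with TGFb. With only the groups compared it became 2 and 0 for TGFb in FLASH and NPAT siRNA cells, 5, 1 and 1 for FLASH, NPAT and SLBP siRNA without TGFb, 0 for the SLBP interaction and 0 for NPAT against SLBP siRNA without TGFb. The SLBP interaction gave 0 with relative log expression scaling, without mitochondrial genes, with the length offset and with limma-voom. The length offset gave 1 for FLASH against NPAT and 0 for FLASH against SLBP siRNA with TGFb, and DESeq2 gave 1 for NPAT against SLBP siRNA with TGFb. The cause was not tested.

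With 1 library left out, the count ran from 0 to 1 for TGFb in NPAT siRNA cells, 1 to 2 for NPAT siRNA without TGFb, 1 to 3 for SLBP siRNA with TGFb, 0 to 1 for the SLBP interaction, 1 to 1 and 0 to 2 for FLASH against NPAT siRNA without and with TGFb, and 1 to 3 and 0 to 2 for FLASH against SLBP siRNA. Values not called with all libraries reversed for SLC2A1 (NPAT siRNA -0.16 to 0.80, SLBP siRNA -0.17 to 0.87, NPAT siRNA with TGFb -0.06 to 0.77), SLC2A3 (TGFb in FLASH siRNA cells -0.14 to 1.00, in SLBP siRNA cells -0.17 to 0.61, also -0.07), HK2 (SLBP siRNA -0.48 to 0.98) and PFKFB4 (TGFb in non-transfected cells -0.03 to 1.15, NPAT siRNA with TGFb -0.92 to 0.26).

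Same-numbered libraries were not taken as pairs in the main fit. Yet differences between replicates 1 and 2 correlated at 0.05 to 0.53 over 28 pairs of groups, above 0.1 in 25. Same-numbered libraries thus deviated together in part, and the main fit counts this as spread. The absence of calls for SLC2A1, HK2 and PFKFB4 against non-transfected cells and for TGFb holds for that fit only. With the block, calls were gained for SLC2A1 (TGFb in SLBP siRNA cells 0.90, adjusted p 0.0033, FLASH siRNA without TGFb 0.019, SLBP siRNA with TGFb 0.0098). Calls were also gained for HK2 (FLASH siRNA 0.003 without and 0.03 with TGFb, NPAT siRNA 0.048) and BNIP3 (FLASH siRNA with TGFb 0.35, adjusted p 0.046). PFKFB4 gained calls for TGFb in non-transfected, FLASH and SLBP siRNA cells (0.042, 0.0057 and 0.031) and for FLASH siRNA without and with TGFb (0.036 and 0.0034). The SLBP interaction called 23 genes in place of 4. The block raised the genes called over the whole table from 1096 to 2119, 729 to 1785, 946 to 2170 and 2233 to 3915 for TGFb, from 4596 to 6945 for SLBP siRNA without TGFb, and from 4271 to 6712 and 3523 to 5715 for NPAT and SLBP siRNA with TGFb. With no filter the first 3 of these were 1735, 1490 and 1780. With only the groups compared they were 1761, 328 and 651 for TGFb in FLASH, NPAT and SLBP siRNA cells, and 3303 and 584 for NPAT and SLBP siRNA without TGFb. With 2 libraries per group, few degrees of freedom limit every error given.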
